A study of Homo sapiens with 6 samples.

Results

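The integrin subunits of breast epithelium were followed in MCF10A, an established line of non-tumorigenic human mammary epithelial cells, across plating density. The genes were 10 chosen by symbol: the alpha subunits ITGA2, ITGA3, ITGA5, ITGA6 and ITGAV and the beta subunits ITGB1, ITGB4, ITGB5, ITGB6 and ITGB8. Values were read for 9 of the 10, through 28 probe sets that the platform annotation ties to 1 symbol, out of 19775 genes in all. ITGB6 was not analysed here, since the 4 probe sets that name it also name LINC02478. The 6 groups were dishes of 35 mm that received 50K, 100K, 200K, 400K, 600K or 800K cells (K as in the labels; the range spans 16-fold), with harvest for RNA at 24 h. All groups were the same cell line, with no transgene or drug named for any group, and shared one medium with horse serum, EGF, hydrocortisone, cholera toxin, insulin and gentamicin. There was 1 array (Affymetrix HG-U133 Plus 2) per density and so no replicate at any density. Every p-value below therefore rests on how far the 6 arrays lay from a fit to density, a spread that may be technical. For each gene limma moves that spread toward the spread over all genes.

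Integrins are transmembrane receptors made of 1 alpha and 1 beta subunit that tie the cytoskeleton to the matrix. The ITGB1 subunit pairs with many alpha subunits and gives receptors for collagen (with ITGA2), laminin (with ITGA3 or ITGA6) and fibronectin (with ITGA5). ITGB4 pairs with ITGA6 only, and that dimer anchors basal epithelial cells to laminin-332 through hemidesmosomes and keratin filaments. Among the listed beta subunits, ITGAV pairs with ITGB1, ITGB5, ITGB6 or ITGB8. These receptors recognise the RGD sequence of vitronectin, fibronectin and the latent form of TGFB1. The dimers with ITGB6 and ITGB8 are known for activating latent TGF-beta.

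The deposited values are ratios to the 50K array, so a gene has a change but no level, and the epithelial identity of the cells could not be checked by level. A gene's value is the geometric mean ratio of its probe sets. The slope is the change of the log2 ratio per doubling of the cells plated. Among basal and breast epithelial markers, 4 of 8 measured genes rose and 0 fell, beside 8.93% rising and 12.4% falling over all genes. KRT14 (slope 0.42 ± 0.02, SE) and CDH1 (0.21 ± 0.02) were among those that rose. In all, 6 of the 8 slopes were above 0. KRT18 (−0.10 ± 0.04) and EGFR (−0.06 ± 0.02) had falling slopes that did not pass (limma adjusted p = 0.116 and 0.12). Both were chosen after their values were seen. With cells plated on a linear scale, 3 markers rose and 1 fell. Of the markers of fibroblasts, endothelial cells and leukocytes, 1 of 7, 2 of 6 and 1 of 5 measured genes rose, and 1 leukocyte gene fell; these were DCN (0.08 ± 0.02), KDR (0.20 ± 0.05), PECAM1 (0.12 ± 0.03), CD14 (0.74 ± 0.08) and ITGB2 (−0.16 ± 0.03). The summed level of these markers is unknown, and their part in the integrin results was not tested. Without the 50K, 100K, 600K or 800K array 0 of the 6 endothelial and 0 of the 7 fibroblast genes rose. On the 5 other arrays the median log2 ratio of all non-control probe sets was 0.02 to 0.05. Poly-A controls had a median log2 ratio of −0.26, −0.45, −0.40, −0.34 and −0.24 from 100K to 800K, in order (24 probe sets). The 3′ minus 5′ difference of the ACTB controls was −0.02, 0.04, 0.17, 0.22 and 0.30 log2 units from 100K to 800K, in order. It thus climbed with density from 100K on, and its part in the slopes was not tested. That of GAPDH stayed between −0.05 and 0.07.

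ITGB8 rose with density and ITGA6 fell. The other 7 measured subunits did not pass the test of the slope. These 2 of 9 (22.2%) stand beside 21.3% of all genes tested in either direction, or 8.93% rising and 12.4% falling (limma, adjusted p under 0.05 over all genes), so the share is near the background.

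ITGB8, the beta subunit of a receptor for latent TGF-beta, had the largest change of the 9. Its ratio to 50K was 0.965, 1.70, 2.30, 2.23 and 3.72 on the arrays from 100K to 800K, in order of density. In this gene mean the 50K and 100K arrays were low and close to each other, and every array from 200K on was higher than both. The probe sets differed at 100K, from 0.771 (242982_x_at) to 1.36 (205816_at). The probe set 205816_at was lower at 200K (1.23) than at 100K. The slope was 0.46 ± 0.06 (SE, 6 arrays; limma adjusted p = 0.00663). It was the one measured integrin of the 9 that was 2-fold or more away from its 50K value at 800K, as were 4.94% of all genes. With any 1 array left out the slope lay between 0.394 (without 800K) and 0.558 (without 50K) and the adjusted p between 0.0115 and 0.0233. All 5 ITGB8 probe sets passed when fitted alone, as did 17.2% of the 41091 probe sets with 1 symbol (7.14% rising and 10.1% falling). The 5 also differed in size: at 800K the probe set 1563010_at was at 6.94 times its 50K value, 211488_s_at at 4.47, and the others between 2.78 and 2.89. When the 3 lowest densities were set against the 3 highest, the difference was 1.18 log2 units with an adjusted p of 0.0559.

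**Figure D1:**
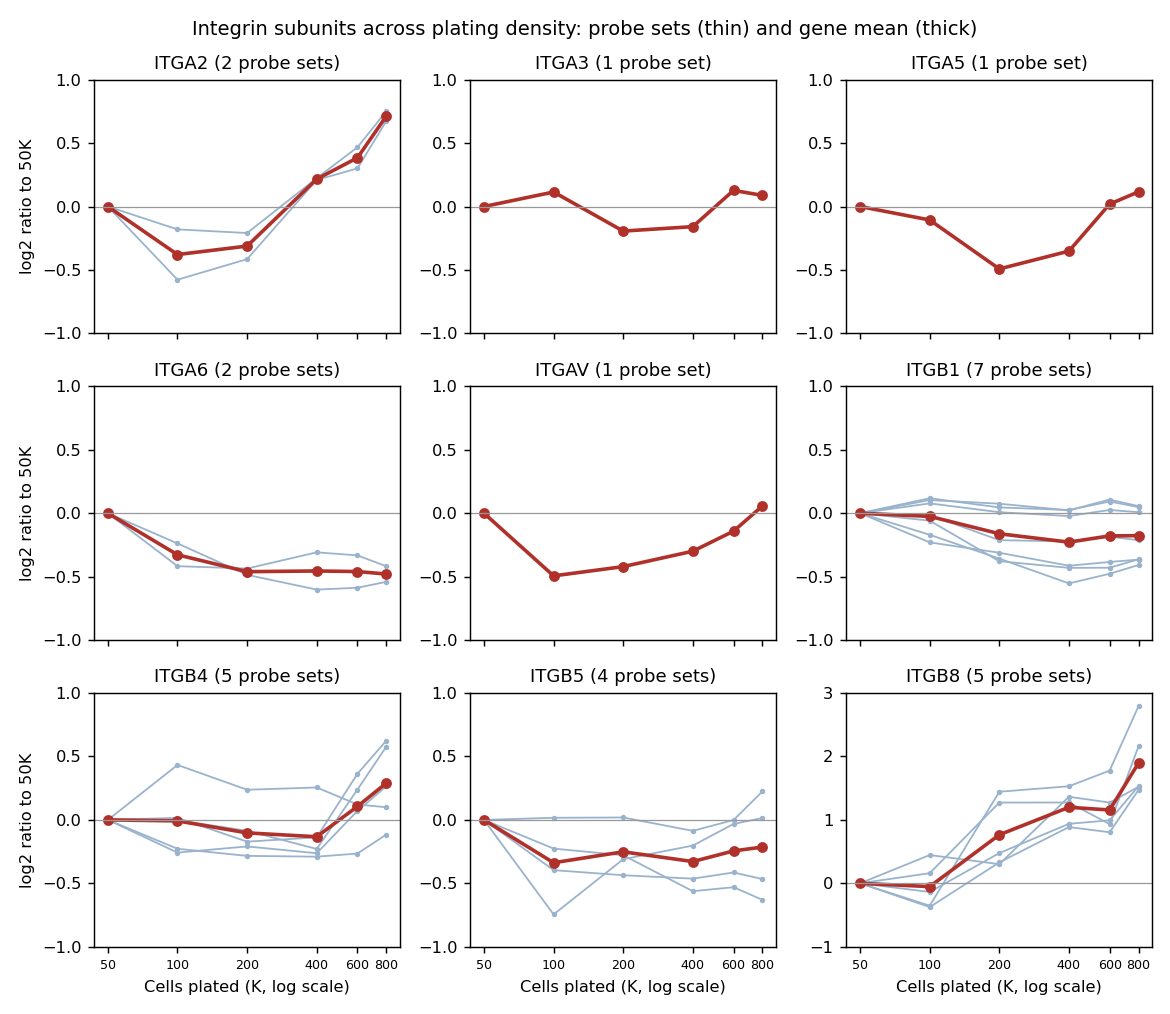
Each panel plots the log2 ratio to the 50K array (vertical; the ITGB8 panel has its own range) against the cells plated (K, log scale) for 1 integrin gene, with 1 array per density; thin lines are probe sets and the thick line is their mean. By the thick lines ITGB8 ends at 1.90, ITGA6 stays near −0.46 from 200K on, and ITGA2, ITGA5 and ITGAV dip before they return to 0.71, 0.12 and 0.06 at 800K.

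ITGA6, the alpha subunit of the laminin receptors and of the hemidesmosome, was lower on every array than at 50K. In order of density from 100K, its ratios were 0.797, 0.726, 0.729, 0.727 and 0.717. The arrays from 200K to 800K were level, so the fall lay between 50K and 200K. The slope was −0.10 ± 0.03 with a limma adjusted p of 0.0484, close to the threshold. The call was lost without any 1 array but 200K: the adjusted p was 0.25 without 50K (slope −0.042), 0.0655 without 100K, 0.0905 without 400K, 0.102 without 600K and 0.0907 without 800K. Of its 2 probe sets, 215177_s_at fell when fitted alone (−0.14 ± 0.03, adjusted p = 0.0221) and 201656_at had a slope of −0.06 ± 0.04 (adjusted p = 0.363).

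ITGB1, the shared beta subunit, had ratios of 0.983, 0.894, 0.854, 0.883 and 0.885 from 100K to 800K. The slope of −0.05 ± 0.02 did not pass (adjusted p = 0.0673). Its 7 probe sets split into distinct patterns. The probe sets 1553530_a_at, 1553678_a_at and 211945_s_at each fell when fitted alone, with ratios of 0.753, 0.777 and 0.776 at 800K and adjusted p of 0.0375, 0.0432 and 0.0428. In contrast 215878_at, 215879_at and 216190_x_at stayed between 0.985 and 1.085 on all arrays, and 216178_x_at was between them at 0.863 at 800K. The gene mean therefore mixes 3 probe sets that fell with 3 that stayed close to 50K; why they differ was not tested. With the arrays centred on their medians the ITGB1 slope was −0.058 with an adjusted p of 0.0351.

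Promoter sequence is shown for ITGB8 and ITGA6, the subunits that passed, and for ITGA2, which had the widest range among the others. Each run is the 250 bases before the transcript start in the RefSeq table (GRCh38.p14), 5′ to 3′ on the gene's strand, all 3 on the plus strand. The windows are chr7:20330650-20330899 for ITGB8, chr2:172427086-172427335 for ITGA6 and chr5:52989102-52989351 for ITGA2. The ITGB8 window lies inside the span RefSeq gives the gene, which begins at 20329766. Capitals mark the letters GGGCGG (the GC box), CATTCC (bound by TEAD factors) or TGANTCA (bound by AP-1) on either strand.
ITGB8: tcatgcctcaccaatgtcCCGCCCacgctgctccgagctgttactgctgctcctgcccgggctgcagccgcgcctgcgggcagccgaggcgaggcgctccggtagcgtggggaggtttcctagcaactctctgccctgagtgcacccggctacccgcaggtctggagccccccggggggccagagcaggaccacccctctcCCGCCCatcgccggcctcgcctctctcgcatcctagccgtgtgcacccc
ITGA6: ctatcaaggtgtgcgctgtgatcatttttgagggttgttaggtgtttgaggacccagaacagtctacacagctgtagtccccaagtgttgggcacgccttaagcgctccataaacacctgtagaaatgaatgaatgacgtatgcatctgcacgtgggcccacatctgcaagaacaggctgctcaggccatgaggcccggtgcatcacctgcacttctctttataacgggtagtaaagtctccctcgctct
ITGA2: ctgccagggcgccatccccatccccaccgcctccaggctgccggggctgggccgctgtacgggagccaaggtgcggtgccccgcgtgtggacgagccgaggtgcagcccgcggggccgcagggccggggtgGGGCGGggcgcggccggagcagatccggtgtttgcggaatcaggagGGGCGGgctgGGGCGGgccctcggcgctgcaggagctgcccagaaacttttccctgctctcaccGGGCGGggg
In these windows GGGCGG occurred 2 times for ITGB8, 0 times for ITGA6 and 4 times for ITGA2, and CATTCC and TGANTCA occurred in none of the 3. G and C made up 71.2% of the ITGB8 window, 50.8% of that of ITGA6 and 76.4% of that of ITGA2. A promoter was matched for 8 of the 10 genes: GGGCGG was found in 5 of the 8 and in 42.3% of all 27305 promoters of this length. CATTCC was found in 2, ITGA5 and ITGB1, and in 11.9% of all, and TGANTCA in 0 of the 8 and in 6.6% of all. Such letters are a description and show no binding.

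ITGA2, ITGAV and ITGA5 were lower at 100K or 200K than at 50K and higher again at 800K. ITGA2, the alpha subunit of the collagen receptor, had ratios of 0.769, 0.806, 1.16, 1.30 and 1.64 from 100K to 800K. The 100K and 200K arrays were below 50K and the 3 densest arrays above it, and the highest value was 2.13 times the lowest. In both ITGA2 probe sets the 100K and 200K arrays were also below 50K and the 3 densest above it, with 1.68 and 1.60 at 800K. The lowest value was at 200K for 205032_at (0.865) and at 100K for 227314_at (0.670). Its slope over all 6 arrays was 0.20 ± 0.07 (adjusted p = 0.108). From 100K to 800K, without the 50K array, it was 0.367 ± 0.049 (adjusted p = 0.0149).

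ITGAV, the alpha subunit shared by the RGD receptors, had ratios of 0.710, 0.747, 0.812, 0.907 and 1.04. The 100K array was the lowest, and each denser array was higher than the one before. Its slope was 0.04 ± 0.06 over 6 arrays (adjusted p = 0.783) and 0.171 ± 0.032 without 50K (adjusted p = 0.0307). ITGA5, the alpha subunit of the fibronectin receptor, had ratios of 0.929, 0.711, 0.784, 1.01 and 1.08, with the lowest value at 200K. Its slope was 0.02 ± 0.06 (adjusted p = 0.898). ITGAV and ITGA5 rest on 1 probe set each. In all, 3 of the 9 integrins (ITGA2, ITGAV and ITGB8) rose without the 50K array and 0 fell, beside 6.56% rising and 8.55% falling among all genes in that fit.

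ITGB4, the hemidesmosomal beta subunit, had ratios of 0.995, 0.931, 0.912, 1.08 and 1.22 and a slope of 0.05 ± 0.04 (adjusted p = 0.472), which was 0.004 without 800K and 0.086 without 50K. The 600K and 800K arrays were above 50K and the 200K and 400K arrays below it. Its 5 probe sets differed: 204989_s_at and 204990_s_at reached 1.49 and 1.54 at 800K, 211905_s_at reached 1.20, 214292_at was highest at 100K (1.35), and 230704_s_at was below 50K on every array. Without probe sets whose suffix (_s_at or _x_at) marks possible cross-hybridisation, ITGB4 rests on 214292_at and its slope was −0.007. ITGB5, a beta partner of ITGAV in a vitronectin receptor, had ratios of 0.791, 0.840, 0.796, 0.844 and 0.862 and a slope of −0.04 ± 0.03 (adjusted p = 0.512). All 5 arrays were below 50K without an order among them. Of its 4 probe sets, 201125_s_at fell when fitted alone (0.646 at 800K, adjusted p = 0.00681), 214020_x_at ended at 0.724, and 201124_at and 214021_x_at ended at 1.01 and 1.17. ITGA3, an alpha subunit of the laminin receptors, stayed between 0.874 and 1.09 with a slope of 0.01 ± 0.04 (adjusted p = 0.922).

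Ordered by the ratio at 800K, the subunits ran from ITGB8 (3.72) and ITGA2 (1.64) through ITGB4 (1.22), ITGA5 (1.08), ITGA3 (1.06) and ITGAV (1.04) to ITGB1 (0.885), ITGB5 (0.862) and ITGA6 (0.717). The scatter of the arrays around a gene's own line was 0.05 log2 units for ITGB1 and 0.31 for ITGA2. The neighbours ITGA5, ITGA3 and ITGAV differed by less than their scatter of 0.26, 0.16 and 0.24.

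The curve of each gene was fitted with a quadratic term, which is above 0 when the middle densities lie below the line through both ends. All 9 integrins had a term above 0, as did 38.3% of all genes, and 8 of the 9 had their lowest value at 100K, 200K or 400K, as did 30.3%. No integrin passed, and 0 of 19775 genes passed in limma after adjustment. At an unadjusted p under 0.05 there were 6 of the 9, all with a term above 0, beside 5.83% of all genes in that direction (12.6%, or 2496 genes, in either). The largest terms were those of ITGA2 (0.59 ± 0.09, limma adjusted p = 0.133), ITGAV (0.47 ± 0.07, adjusted p = 0.141) and ITGA5 (0.46 ± 0.12, adjusted p = 0.229). The unadjusted p of these 3 lay between 0.000777 and 0.00936, and ITGA6, ITGB4 and ITGB5 had 0.0117, 0.0326 and 0.0369. Of these 6, by gene mean, ITGA5 was lowest at 200K, ITGA2, ITGAV and ITGB5 at 100K, ITGB4 at 400K and ITGA6 at 800K. Some probe sets differed from their gene mean. Those of ITGA6 were lowest at 200K and 400K, and the ITGA2 probe set 205032_at at 200K. For ITGB5, 201124_at was lowest at 100K, 214021_x_at at 400K, and 201125_s_at and 214020_x_at at 800K. All the curves share the same 50K array. The poly-A controls were lowest at 200K (median −0.45) and closer to 50K at 800K (−0.24). The part of the 50K array or of these controls in the curves was not tested.

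**Figure D2:**
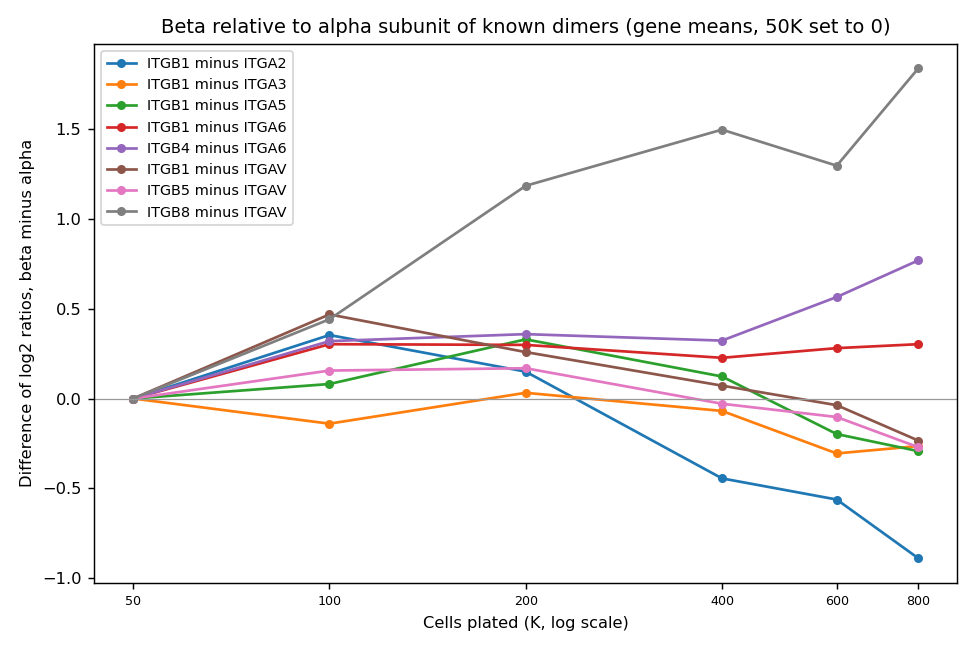
Lines show the log2 ratio of a beta subunit minus that of its alpha partner (vertical, log2 units, 50K set to 0) against the cells plated (K, log scale), for 8 known dimers with 1 array per density. ITGB8 minus ITGAV ends at 1.84 and ITGB4 minus ITGA6 at 0.77, while ITGB1 minus ITGA2 ends at −0.89.

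The messages of dimer partners were compared within each array, with slopes given as descriptions. Every difference is relative to the same 50K array, so a sign shared by all 5 other arrays is not 5 independent observations. The steepest was ITGB8 minus ITGAV: the log2 difference was 0.44, 1.19, 1.50, 1.30 and 1.84 from 100K to 800K, with a slope of 0.43 ± 0.06. At 100K ITGB8 lay at −0.05 and ITGAV, read from 1 probe set, at −0.49, so the 0.44 there was the low ITGAV. The difference was 3.58-fold at 800K and above 0 on all 5 arrays. For the hemidesmosomal pair, ITGB4 minus ITGA6 was 0.32, 0.36, 0.32, 0.57 and 0.77 (slope 0.15 ± 0.04), also above 0 on all 5. Without the possibly cross-hybridising probe sets that slope was 0.055 ± 0.088. ITGB1 minus ITGA6 stayed between 0.23 and 0.30 on all 5 arrays, with a slope of 0.05 ± 0.03 that was −0.006 without the 50K array. For the collagen receptor, ITGB1 minus ITGA2 went from 0.35 at 100K to −0.89 at 800K (slope −0.26 ± 0.08, and −0.416 ± 0.046 without 50K). ITGB1 minus ITGAV (−0.09 ± 0.07) reached −0.219 ± 0.019 without 50K. ITGB1 minus ITGA5 (−0.07 ± 0.06) and ITGB5 minus ITGAV (−0.07 ± 0.04) reached −0.15 and −0.141 without that array, and ITGB1 minus ITGA3 had a slope of −0.06 ± 0.03.

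Of the 17 other integrin genes (16 subunits and ITGBL1, a secreted integrin-like protein), 1 rose, 2 fell and 14 did not pass. The shares over all genes were 8.93% rising and 12.4% falling. The median slope was −0.001 beside 0.004 over all genes. ITGA10, an alpha subunit of a collagen receptor known from cartilage, rose with a slope of 0.72 ± 0.10 (limma adjusted p = 0.00617). Its ratios were 0.990, 1.70, 2.50, 4.63 and 7.38 from 100K to 800K, each density from 200K on above the one before. ITGAE, which pairs with ITGB7 in a receptor for E-cadherin on T cells, fell: 1.13, 0.965, 0.790, 0.541 and 0.434 (slope −0.31 ± 0.07, adjusted p = 0.0289). Leaving out 100K, 600K or 800K ended that call, with an adjusted p of 0.091, 0.0896 or 0.0996. ITGB2, the beta subunit of leukocyte integrins, fell to 0.654 at 800K (slope −0.16 ± 0.03, adjusted p = 0.0166; 0.0557 without 600K and 0.0708 without 800K). Its 3 probe sets did not share a direction, and the call was also lost with their median (adjusted p = 0.0542), without the possibly cross-hybridising ones (0.0646) and with the 3 lowest against the 3 highest densities (0.109). ITGA10 and ITGAE rest on 1 probe set each.

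**Figure D3:**
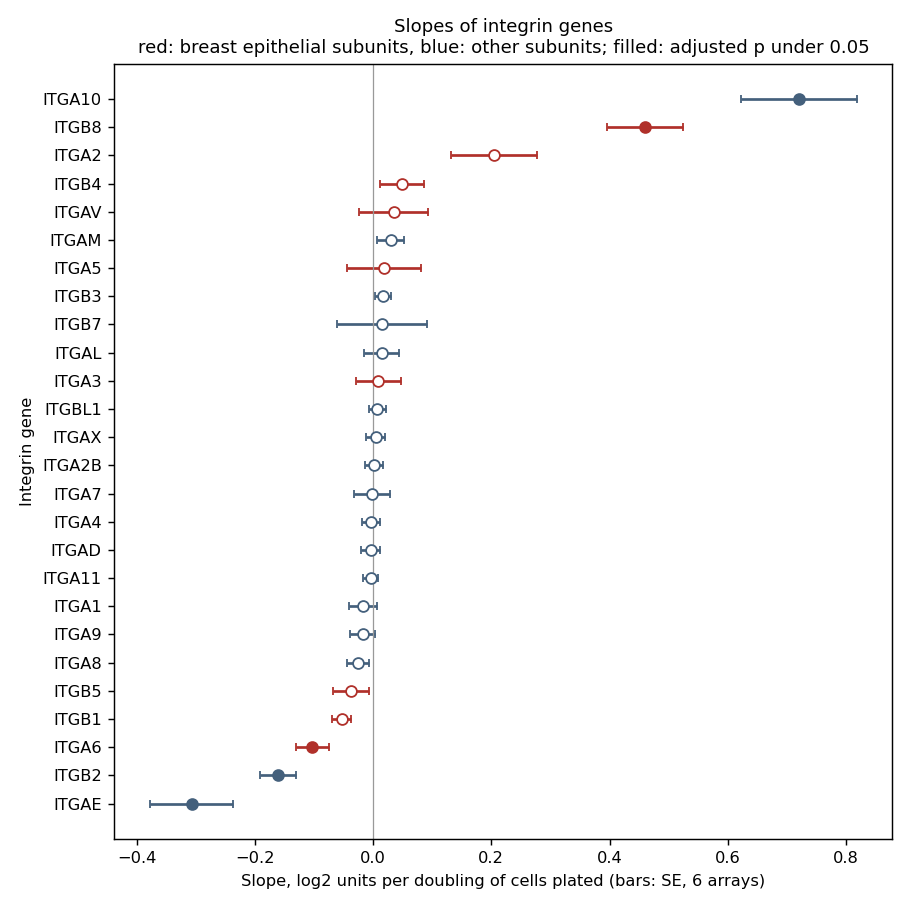
Points give the slope of the log2 ratio per doubling of cells plated (horizontal) with its SE over 6 arrays for each measured integrin gene; red marks the breast epithelial subunits, blue the others, and filled points have an adjusted p under 0.05. ITGA10 (0.72) and ITGB8 (0.46) stand at the top and ITGAE (−0.31) at the bottom.

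Of 17 measured genes listed as matrix ligands of these receptors, 10 fell, 1 rose and 6 did not pass. TGFB2 is on the list and among the 10, though no value here shows it to be a ligand. Over all genes 12.4% fell and 8.93% rose. The median slope was −0.148 beside 0.004 over all genes. With any 1 array left out 8 or 9 of the 17 fell, and 7 fell with the 3 lowest against the 3 highest densities. The largest slopes were those of the matricellular ligands CCN2 (−0.78 ± 0.04) and CCN1 (−0.71 ± 0.06), THBS1 (−0.62 ± 0.05) and fibronectin FN1 (−0.49 ± 0.02), whose ratios at 800K were 0.141, 0.165, 0.172 and 0.261. The FN1 slope was −0.079 (adjusted p = 0.175) without the possibly cross-hybridising probe sets. The genes that follow in this paragraph were chosen after their values were seen. LAMB3, a chain of laminin-332 and so a ligand of the ITGA6 and ITGB4 dimer, fell to 0.430 at 800K (−0.30 ± 0.07, adjusted p = 0.0292; 0.227 without 50K, 0.0856 without 100K and 0.0618 without 600K). The chains of laminin-511 differed in direction. LAMA5 rose (0.10 ± 0.01, adjusted p = 0.0056) and LAMC1 fell (−0.06 ± 0.01, adjusted p = 0.0398), a call lost with any 1 array left out (adjusted p from 0.0569 without 400K to 0.139 without 50K). LAMB1 had a slope of 0.15 ± 0.05 that did not pass (adjusted p = 0.0881), and 0.254 without 50K (adjusted p = 0.017). Of the TGF-beta genes on this list, TGFB2 fell to 0.275 at 800K (−0.41 ± 0.07, limma adjusted p = 0.0102). TGFB1 had a slope of −0.01 ± 0.03 (limma adjusted p = 0.893). Whether the ITGAV dimers bind the latent form of TGFB2 was not tested.

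Inside the cell, kindlin FERMT2, which binds beta subunit tails and activates integrins, fell to 0.446 at 800K (slope −0.32 ± 0.03, adjusted p = 0.00236). The list of talin, kindlin and their regulators had 3 falling, 1 rising and 7 not passing of 11 measured genes (median slope −0.018). Over all genes 12.4% fell and 8.93% rose. FERMT1, the epithelial kindlin, had a slope of −0.11 ± 0.03 (adjusted p = 0.0423), and this call was lost without any 1 array but 800K (adjusted p up to 0.305, without 50K). SHARPIN, an inhibitor of integrin activation, fell (−0.15 ± 0.02, adjusted p = 0.00754). The adaptor TNS1 rose (0.08 ± 0.01, adjusted p = 0.0129), a call lost without 800K (adjusted p = 0.0559), without the possibly cross-hybridising probe sets (0.537) and with the median of probe sets (0.0895). In each of the fits that left out 1 array 2 or 3 of the list fell. With the median of probe sets 5 fell, and without the possibly cross-hybridising probe sets 0 of the 7 that could then be measured fell and 0 rose.

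Of 28 measured genes of the focal adhesion scaffold and its kinases, 8 fell, 1 rose and 19 did not pass (median slope −0.042). This stands beside 12.4% falling and 8.93% rising over all genes. Without 50K 5 fell, and without the possibly cross-hybridising probe sets 4 of 25 fell. PDLIM7 (−0.28 ± 0.03), LASP1 (−0.18 ± 0.02) and CSRP1 (−0.18 ± 0.02), LIM-domain proteins of actin structures, fell and had ratios of 0.483, 0.629 and 0.588 at 800K. The slope of PDLIM7 was −0.131 (adjusted p = 0.168) without the possibly cross-hybridising probe sets. GIT1, a scaffold protein of focal adhesions, rose (0.13 ± 0.02, adjusted p = 0.00722). PXN, the adaptor paxillin, fell (−0.12 ± 0.02, adjusted p = 0.0071), and the focal adhesion kinase PTK2 had a slope of −0.04 ± 0.03 (adjusted p = 0.367) that was −0.067 without 100K (adjusted p = 0.0332) and −0.002 without 50K (0.981); these 2 were chosen after their values were seen.

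Among partners of the hemidesmosome and tetraspanins, 5 of 9 measured genes rose, 1 fell and 3 did not pass (median slope 0.122). The shares over all genes were 8.93% rising and 12.4% falling. With the 3 lowest against the 3 highest densities 2 rose and 2 fell. The rising KRT5 and KRT14 are also 2 of the 4 epithelial markers that rose. KRT14, a keratin of basal cells that hemidesmosomes anchor, was at 3.01 times its 50K value at 800K. The tetraspanins CD82 (0.18 ± 0.04) and CD9 (0.14 ± 0.01) rose and TSPAN4 fell (−0.17 ± 0.01). The call of CD82 ended when 100K (adjusted p = 0.0737), 600K (0.0667) or 800K (0.0535) was left out, and with the median of its 3 probe sets in place of their mean CD9 had a slope of 0.013. DST, whose epithelial isoform links ITGB4 to keratin, rose (0.13 ± 0.01, adjusted p = 0.00394), while the other linker, PLEC, had a slope of −0.13 ± 0.04 (adjusted p = 0.0816; −0.067 and 0.52 without 50K); both were chosen after their values were seen. Isoforms of DST could not be told apart here.

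Of 20 genes of integrin traffic and coreceptors, 4 rose, 2 fell and 14 did not pass (median slope 0.038). Over all genes 8.93% rose and 12.4% fell. Without 50K or 600K 2 of the 20 rose and 1 fell, and without 100K or 800K 1 fell. The syndecans SDC1 (0.23 ± 0.04) and SDC4 (0.22 ± 0.05), matrix coreceptors with heparan sulfate chains, rose and had ratios of 1.85 and 1.84 at 800K. RAB11A, a GTPase of recycling endosomes, rose (0.13 ± 0.02) and caveolin CAV1 fell (−0.18 ± 0.03). SDC4 did not pass when 100K (adjusted p = 0.0897), 600K (0.0907) or 800K (0.106) was left out, nor RAB11A without 50K (0.0524).

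**Figure D4:**
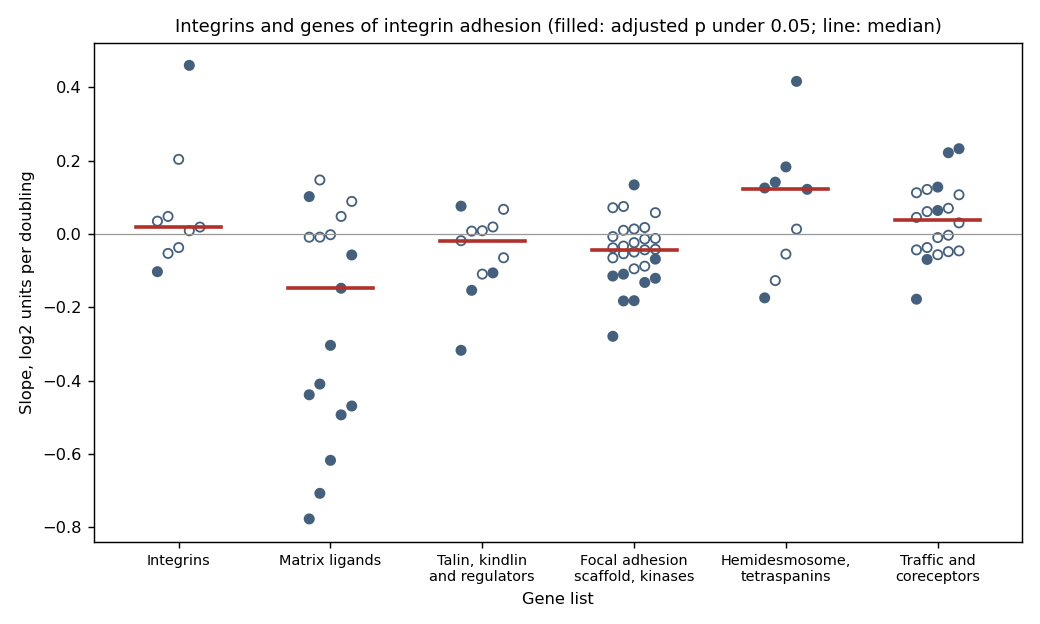
Points give the slope of the log2 ratio per doubling of cells plated (vertical) for the measured genes of each list (horizontal); filled points have an adjusted p under 0.05 and the red line is the list's median. The medians are 0.019 for the integrins, −0.148 for their matrix ligands and 0.122 for hemidesmosome and tetraspanin partners.

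The 3 genes whose 6 values lay closest to those of ITGB8, each gene centred on its own mean, were PRSS12, OFD1 and TMCC3, with root mean square differences of 0.121, 0.139 and 0.151 log2 units among 19766 genes compared. At 800K they were at 3.14, 2.70 and 2.78 times their 50K value. Closest to ITGA6 were HCRTR2, FGD6 and ZNF445, with differences of 0.021, 0.028 and 0.028 and ratios of 0.738, 0.701 and 0.764 at 800K. Such likeness describes 6 arrays.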

How the data were processed

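Per the labels' protocols, total RNA of MCF10A cells was measured on HG-U133 Plus 2 arrays. The deposited values are linear ratios to the 50K array: all 54675 values of its column equal 1 within 1e-06. RMA is named in the submitters' processing notes; the division by 50K and the scaling between arrays are not given in the sources used here. Without intensities, signal over background is unknown, and a change near background is understated. The number of arrays limits the precision.

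Of the probe sets, 62 were controls, and 41091 others had 1 gene symbol, 1801 several and 11777 none listed; 41037 of the 41091 were matched to RefSeq by gene identifier. A gene was the mean log2 ratio of its single-symbol probe sets, with no filter and no pseudocount. Slopes on log2 of cells plated (4 residual degrees of freedom) and quadratic terms (3) came from lmFit and eBayes of limma 3.58.1 (R 4.3.3), two-sided, with Benjamini-Hochberg adjustment over 19775 genes and a threshold of 0.05, and tested on simulated data. Errors after ± are SE. For genes and probe sets they use the variance moderated by eBayes, and for partner differences that of ordinary least squares. Dividing by 50K leaves slopes unchanged. Differences between single arrays have no test.

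The members and gene lists were chosen with earlier results of these data known. Genes named beyond the integrins are, per list, up to 4 past the threshold with the largest slopes, all other integrins that passed, and the 3 nearest patterns to the steepest rising and falling integrins; others are said to be chosen after their values were seen. Alternatives were probe sets without the suffixes _x_at and _s_at, the median of probe sets, each probe set alone, centred arrays, linear or ranked density, 3 lowest against 3 highest densities, robust variance and each array left out.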

Additional observations from a re-analysis of the deposited data

How the results depend on the processing

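The rise of ITGB8 kept its direction in all alternatives and its call in all but the 3 lowest against the 3 highest densities (1.18). The fall of ITGA6 kept its direction but lost its call without suffixed probe sets (−0.062), with the median of probe sets (−0.102), centred arrays (−0.108), linear (−0.078) or ranked density (−0.100), robust variance (−0.102) and 3 lowest against 3 highest densities (−0.202). So 0 of the 9 (0 of 8 without suffixed probe sets, where ITGA3 has none) fell under these settings. The exception was ITGB1, which fell with centred arrays (−0.058). By at least 1 probe set alone 3 of the 9 fell, among them ITGB1 (−0.119) and ITGB5 (−0.153). By that rule 2946 of the 19775 genes fell, and a gene with more probe sets has more chances to be counted. With linear density 2 of the 9 rose, ITGB8 and ITGA2 (0.239), beside 1929 of the 19775 genes. ITGA2 also passed with 3 lowest against 3 highest (0.668), where 908 of all genes rose.

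With 1 array left out, 1 to 3 of the 9 rose and 0 to 1 fell. The slopes then lay between 0.141 and 0.367 for ITGA2, −0.010 and 0.028 for ITGA3, −0.034 and 0.101 for ITGA5, −0.118 and −0.042 for ITGA6, −0.017 and 0.171 for ITGAV, 0.004 and 0.086 for ITGB4, and −0.060 and 0.030 for ITGB5. Partner differences lay between −0.416 and −0.204 (ITGB1 minus ITGA2), −0.150 and −0.029 (ITGB1 minus ITGA5), −0.006 and 0.069 (ITGB1 minus ITGA6), −0.219 and −0.046 (ITGB1 minus ITGAV), and −0.141 and −0.039 (ITGB5 minus ITGAV). That of TGFB1 lay between −0.018 and 0.001. The count of all genes past the threshold lay between 2388 (without 800K) and 3909, with 1026 to 1627 rising and 1362 to 2282 falling, and was 2447 without 600K.

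Without suffixed probe sets ITGB4 (−0.007; quadratic term −0.264), ITGB5 (0.071), ITGB5 minus ITGAV (0.036), TGFB1 (0.057) and DCN (−0.002) changed sign, and ITGB1 minus ITGA6 (0.008) and ITGB4 minus ITGA6 (0.055) were smaller; fewer probe sets enter there. The quadratic term of ITGB8 was −0.227 with linear density. All genes past the threshold numbered 2664 without suffixed probe sets (1157 rising, 1507 falling) and 2259 with 3 lowest against 3 highest densities (908 and 1351). The 3 against 3 densities also ended 22 of the 41 calls of the other genes named; focal adhesion genes then had 6 falling, talin and kindlin genes 0, other integrins 0, and traffic genes 2 rising and 1 falling. With linear density 5 focal adhesion genes fell. Why the values moved was not tested. No paired analysis was possible because each density has 1 array.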
